A study of Sus scrofa with 35 samples.

Results

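The 9 genes described here control the amount of polyamines in a cell. They are OAZ1, OAZ2, OAZ3, AZIN1, ODC1, SAT1, SMS, SRM and AMD1. They were measured in whole blood of 35 castrated male pigs, with 1 array for each pig, and were found on the array by the gene name given to each probe. This gave 33 of the 60305 probes that are not controls. Of these, 32 had a value in the table of 39072 expressed probes, and the probe that had none was SMS O9162, which was well above background on 0 of 35 arrays. The genes were selected on the OAZ3 intensities of these same arrays, whose difference between CR and LW pigs was already known, together with the genes of its pathway. OAZ3 is therefore described by breed with no test.

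The pigs were Creole (CR), a local Caribbean breed, Large White (LW), a commercial European breed, or F1 crosses of both. Thermoneutral (TN) pigs were held at 24 °C. Heat stress (HS) lasted 5 d by the protocol text, while by the methods of the study some of these pigs were slaughtered a day earlier. Its temperature was 30 °C by the sample labels and 32 °C by the protocol text. By the same methods all TN pigs were slaughtered before the heat began, so climate cannot be told apart from slaughter date and age. There were 5 CR TN, 6 CR HS, 6 F1 TN, 6 F1 HS, 6 LW TN and 6 LW HS pigs. Castrated males have no testis, the tissue for which OAZ3 is best known. In blood, fewer cells of a type and less RNA per cell cannot be told apart.

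Polyamines (putrescine, spermidine and spermine) are small positively charged molecules that growing cells need. Ornithine decarboxylase (ODC1) makes putrescine, AMD1 provides the aminopropyl group, and SRM and SMS then make spermidine and spermine. Antizymes (OAZ1, OAZ2, OAZ3) bind ornithine decarboxylase and block it, and their own translation needs a ribosomal frameshift that polyamines promote. The antizyme inhibitor AZIN1 binds antizymes in its place, and SAT1 acetylates spermidine and spermine, which opens the way to their breakdown or export.

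OAZ3 was measured by 3 probes of 60 bases. The probes A_72_P437459 and O3277 hold the same sequence, and A_72_P619999 another one. Both sequences are given as the array files list them, because the pigs were separated by breed far more clearly by the first than by the second.
A_72_P437459 and O3277: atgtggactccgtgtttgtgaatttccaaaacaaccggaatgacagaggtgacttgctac
A_72_P619999: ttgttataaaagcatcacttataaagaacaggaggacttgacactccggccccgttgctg
The array files place no probe on the genome. In the RefSeq gene table for the assembly Sscrofa11.1, OAZ3 lies on chromosome 4 from 97439993 to 97448493. The last 334 bases of that interval overlap MRPL9 (97448160 to 97462523), which encodes a mitochondrial ribosomal protein.

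OAZ3 was low in all CR pigs, high in all LW pigs but 1, and spread from the CR to the LW level in F1 pigs. With probe A_72_P437459, the log2 intensities of the 5 CR TN pigs were 6.09, 5.50, 5.41, 5.32 and 5.64. The 6 CR HS pigs ranged from 5.29 to 5.99 with a median of 5.58. The 6 LW TN pigs ranged from 7.87 to 9.13 (median 8.14), with no overlap with the CR pigs. Among the 6 LW HS pigs the median was 8.19 and the highest value 8.49, while the lowest, LW HS pig 6, had 5.79 and lay within the CR range. F1 TN pigs ranged from 5.67 to 7.85 (median 6.91) and F1 HS pigs from 5.44 to 8.13 (median 5.85). In all, 11 of 12 LW pigs lay above the highest CR pig. Of the 12 F1 pigs, 6 were at or below the highest CR pig (2 TN and 4 HS), 5 lay above it and below those 11 LW pigs, and 1 was within the range of those LW pigs. With O3277 these counts were 6, 4 and 2. With A_72_P619999 they were 8, 0 and 4. There the highest CR pig (7.09) and the lowest of those 11 LW pigs (7.18) left little room between them. The count of 0 therefore does not show that F1 pigs lacked middle values. Their mean with this probe was 6.82, against 6.54 in CR and 7.31 in LW pigs. The SD over pigs of a breed with A_72_P437459 was 0.99 in F1, 0.82 in LW and 0.26 in CR pigs.

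**Figure D1:**
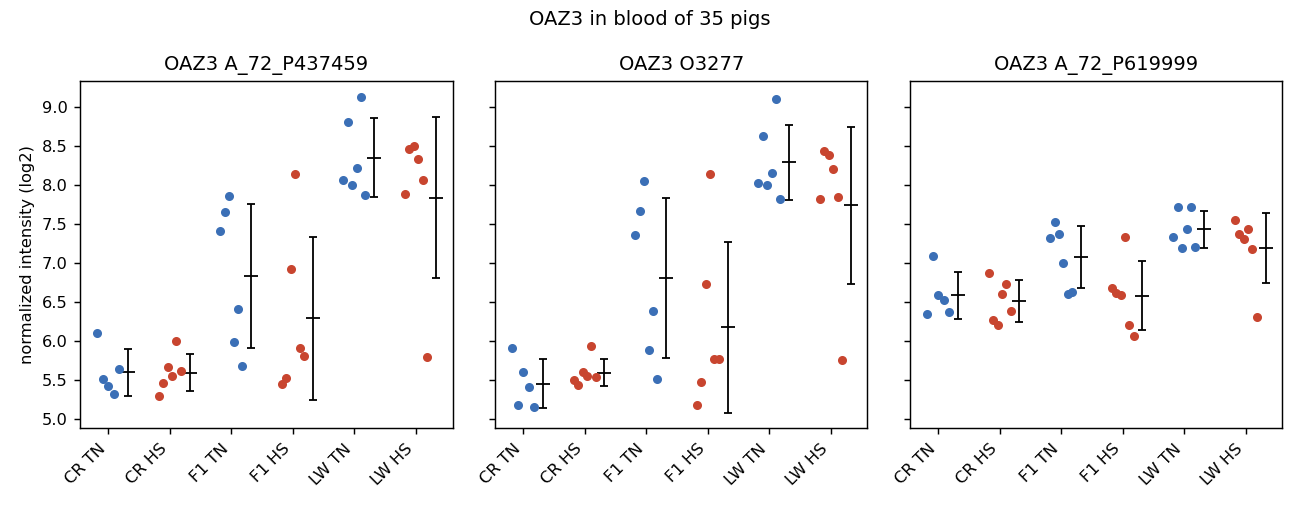
Normalized log2 intensity of the 3 OAZ3 probes (panels) in each pig, by breed and climate on the x axis. Points are pigs (blue TN, red HS), and the line with bars beside them is the group mean ± SD. CR pigs stay at or below 6.09 with A_72_P437459, while 11 of 12 LW pigs are at 7.87 or higher and F1 pigs cover both ranges.

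The order of the group means was CR HS (5.59 ± 0.24, SD, n = 6) and CR TN (5.59 ± 0.30, n = 5), then F1 HS (6.29 ± 1.05, n = 6), F1 TN (6.83 ± 0.93, n = 6), LW HS (7.83 ± 1.03, n = 6) and LW TN (8.35 ± 0.50, n = 6). Neighbours in this order differed by no more than the larger of their SDs. In the additive fit, CR minus LW was -2.48 ± 0.30 (SE) on the log2 scale, F1 minus CR 0.95 ± 0.30 and F1 minus LW -1.53 ± 0.29. The mean of the F1 pigs was 6.56, against a mid-parent value of 6.84. The twin probe O3277 gave -2.47 ± 0.31 for CR minus LW. For A_72_P619999 the difference had the same sign and was smaller, at -0.76 ± 0.15, and the 11 LW pigs other than LW HS pig 6 were again above the highest CR pig (7.09).

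The pig that stood apart did so with both sequences, and its other breed probes did not. LW HS pig 6 had 6.31 with A_72_P619999, against 7.18 or more in the other LW pigs. At the 418 probes other than OAZ3 that differed between CR and LW pigs, 16.5% of its values were nearer to the CR mean than to the LW mean. This share ranged from 9.33% to 21.1% over the 12 LW pigs and from 70.8% to 91.9% over the 11 CR pigs, and those probes had been selected with the same pigs. Without this pig, CR minus LW was -2.69 with A_72_P437459 and -0.84 with A_72_P619999. Within the 4 slides that hold all groups, CR minus LW with A_72_P437459 ranged from -3.21 to -1.17, and the smallest difference was on the slide that carried LW HS pig 6.

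The probes of different sequence were positively correlated in LW and F1 pigs, where OAZ3 varied more than in CR pigs. Over 35 pigs the Pearson correlation of A_72_P437459 and A_72_P619999 was 0.86, and 0.73 after subtraction of group means. By breed it was 0.94 in LW (n = 12), 0.79 in F1 (n = 12) and -0.25 in CR pigs (n = 11). The Spearman (rank) correlation was 0.73 over 35 pigs. By breed the rank correlation was 0.66 in LW, 0.59 in F1 and -0.39 in CR pigs. The LW pigs include the pig that was low with both sequences, and its part in the Pearson value of 0.94 was not tested. All arrays share the normalization, and these values are descriptive. Both probes of the pair A_72_P437459 and O3277 were well above background on 33 of 35 arrays, and the arrays below it were of CR pigs. A_72_P619999 was well above background on all 35.

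**Figure D2:**
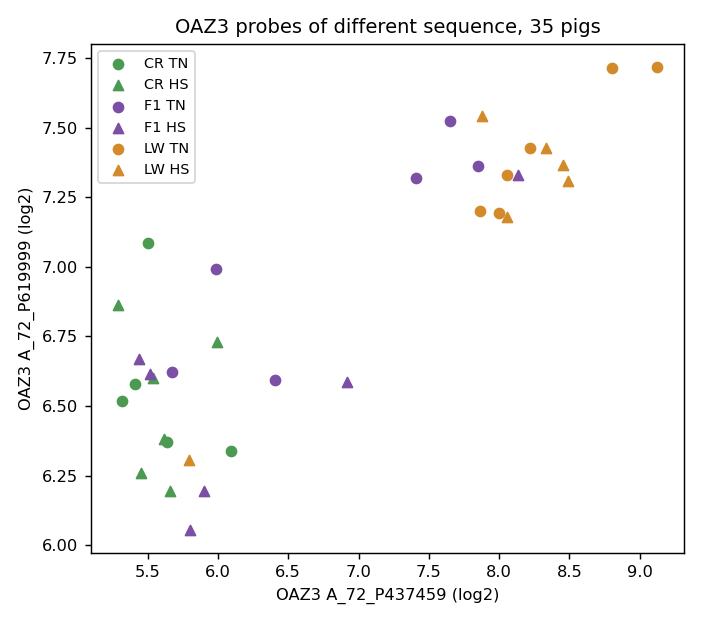
Log2 intensity of OAZ3 in 35 pigs with probe A_72_P437459 (x axis) and with probe A_72_P619999 (y axis), which differ in sequence. Colours are breeds (green CR, purple F1, orange LW), circles TN and triangles HS. LW HS pig 6 is the orange triangle among the CR pigs.

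The neighbouring genes with a value did not pass the test for this contrast. TDRKH, the nearest gene with a value on the other side, had a CR minus LW difference of -0.03 ± 0.08 (limma adjusted p = 0.968). Its group means were only 5.20 to 5.54, a low level at which a difference may not show, and its other probe had no value. The 2 probes of MRPL9 had 0.20 ± 0.11 (adjusted p = 0.574) and 0.17 ± 0.10 (adjusted p = 0.613). Over the 35 arrays these 2 probes ran opposite to the OAZ3 probe A_72_P619999, with Pearson correlations of -0.66 and -0.69, and both were higher in HS (0.33 ± 0.09, adjusted p = 0.0051 and 0.21 ± 0.08, adjusted p = 0.0418). The haploid germ cell markers PRM1, PRM2 and TNP2, the 3 of 8 listed with a value, also did not pass the test for CR minus LW, and their median difference was -0.14. The other 5 listed markers had no value, and the level of these 3 was not set against that of OAZ3, since probes differ in brightness.
The genes with the highest positive correlation with the brightest OAZ3 probe, A_72_P619999, over the 35 arrays were RFESD (Pearson r = 0.73), ATP5J2 (0.71), NDUFA3 (0.70), ZBTB7A (0.69) and RIN3 (0.68). After subtraction of group means these became 0.55, 0.64, 0.63, 0.68 and 0.65. For A_72_P437459, examined after its values were seen, they were PLVAP (0.76), DCPS (0.76), FSCN1 (0.75), RGS2 (0.73) and WWP1 (0.72). Subtraction of group means, and with them the breed difference, lowered these to 0.53, 0.46, 0.32, 0.26 and 0.50. The lists for the 2 probe sequences had no gene in common, and how much such short lists would overlap was not examined.

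The other 8 genes were not detected as different between breeds. Of their 29 probes, 0 passed an adjusted p of 0.05 in limma for CR minus LW, where 1.08% of all probes did. An unadjusted p below 0.05 was found for 3 of the 29, and for 3950 of all 39072 probes, which is about the same share. These were OAZ1 O502 (0.39 ± 0.16, adjusted p = 0.348), ODC1 (0.34 ± 0.16, adjusted p = 0.465) and AZIN1 A_72_P618526 (-0.24 ± 0.10, adjusted p = 0.405). For F1 minus CR, F1 minus LW and F1 minus the mid-parent value, 0 of 29 passed and 0 had an unadjusted p below 0.05, beside 0.184%, 0.0256% and 0.0717% of all probes past the adjusted threshold and 4.95%, 4.48% and 2.99% past the unadjusted one. The 95% confidence interval of CR minus LW was -0.07 to 0.24 for the brightest OAZ1 probe and -0.13 to 0.29 for OAZ2. For ODC1, the target of the antizymes, it was 0.01 to 0.66.

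Heat stress went with lower OAZ1 at 5 of 6 probes. Higher values in HS were called at 1 of 3 OAZ2 probes, 1 of 2 AMD1 probes and the SRM probe. For HS minus TN, 9 of 32 probes were differentially expressed (3 up-regulated and 6 down-regulated in HS). This is 28.1%, while 34.8% of all probes passed (20.1% up and 14.7% down), so the share called was not above that of the array. The study fitted pen, slaughter day and parents as random effects and reported far fewer differentially expressed probes in blood. Those labels are lacking here and pigs were treated as independent, so the adjusted p values for heat may be too small. The median difference was -0.06 over the 32 probes and 0.06 over all probes. Both OAZ1 and AZIN1 were called only in the downward direction, and OAZ2, SRM and AMD1 only upward. OAZ3, ODC1, SMS and SAT1 had no probe past the threshold.

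**Figure D3:**
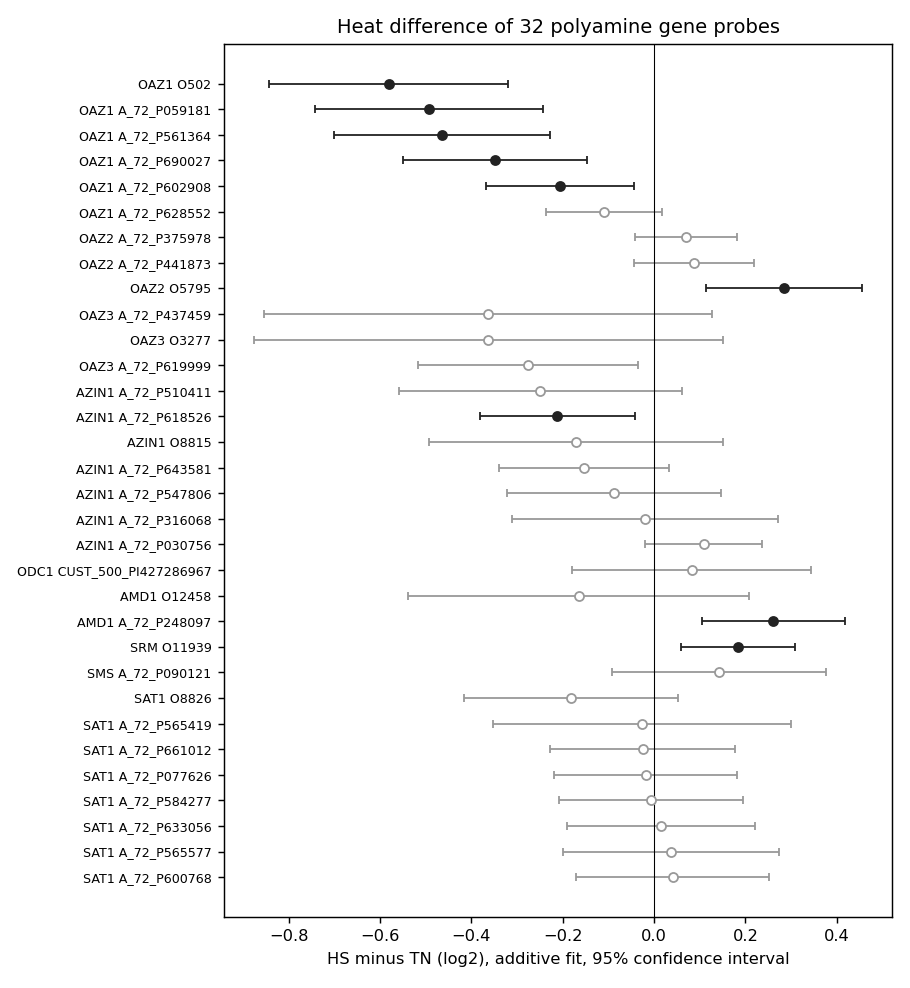
HS minus TN difference on the log2 scale (x axis) of 32 probes of the 9 polyamine genes (y axis), with the 95% confidence interval of the additive fit. Filled points passed an adjusted p of 0.05 over 39072 probes, and open points did not. OAZ1 has 5 of 6 probes filled below 0, and OAZ2, AMD1 and SRM have 1 each above 0.

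OAZ1, the most widely expressed antizyme, was down-regulated with 5 of 6 probes, from -0.58 ± 0.13 (O502, adjusted p = 0.00198) to -0.21 ± 0.08 (A_72_P602908, adjusted p = 0.0432). The call of A_72_P602908 was lost in 17 of the 35 fits that left out 1 pig. With O502, LW TN pigs ranged from 12.18 to 12.89 (median 12.52) and LW HS pigs from 11.38 to 12.15 (median 11.87), with no overlap. F1 TN pigs ranged from 11.97 to 13.59 (median 12.66) and F1 HS pigs from 11.57 to 12.39 (median 12.27). CR TN pigs had 12.80, 13.03, 12.72, 13.14 and 12.34, and CR HS pigs ranged from 11.60 to 13.26 (median 12.25). The groups overlapped in CR and F1 pigs, and the highest CR HS pig was above all CR TN pigs. The probe A_72_P059181 fell by 0.49 ± 0.12 (adjusted p = 0.00381), and it shares 47 bases with A_72_P561364, so these 2 are not separate measurements. Its F1 HS pigs (15.15 to 15.87) lay below all F1 TN pigs (15.98 to 16.77). The share of all probes without overlap between climates was not counted. Within breeds, 38.7% of all probes were called in F1 pigs and 0% in LW pigs. The brightest probe, A_72_P628552, had -0.11 ± 0.06 (adjusted p = 0.165), and it shares 30 bases with A_72_P602908. Another probe, of the unnamed transcript TC627529, is the reverse complement of 39 bases of A_72_P059181, and the strand that the OAZ1 probes report was not checked here.

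OAZ2 is a second antizyme, and its brightest probe (O5795) was up-regulated by 0.28 ± 0.08 (adjusted p = 0.0106). F1 TN pigs had values of 10.33 to 10.65 (median 10.59) and F1 HS pigs 10.43 to 11.28 (median 10.99). CR pigs went from a median of 10.74 in TN to 10.88 in HS, and LW pigs from 10.56 to 10.74. The groups overlapped in each breed. Its other 2 probes had 0.09 ± 0.06 and 0.07 ± 0.06 and did not pass, and A_72_P375978 was well above background on 15 of 35 arrays.

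OAZ3 did not pass for heat with any probe in the additive fit. HS minus TN was -0.28 ± 0.12 for A_72_P619999 (adjusted p = 0.067) and -0.36 ± 0.24 for A_72_P437459 (adjusted p = 0.237). With slide as a block A_72_P619999 did pass (-0.28, adjusted p = 0.049), as it did with array weights (-0.34, adjusted p = 0.0151) and with scaling of the processed intensity (-0.45, adjusted p = 0.0414). It also passed in 4 of the 35 fits that left out 1 pig. In CR pigs both climates had the same mean with A_72_P437459 (5.59), with a 95% confidence interval of -0.89 to 0.89 for the difference. The antizyme inhibitor AZIN1 was called with 1 of 7 probes, its brightest (-0.21 ± 0.08, adjusted p = 0.0477). This call was lost in 21 of the 35 fits that left out 1 pig, with adjusted p up to 0.0866, and with no filter on dim probes. F1 TN pigs ranged there from 7.73 to 8.55 (median 8.22) and F1 HS pigs from 7.58 to 7.97 (median 7.72), while the medians of LW pigs were 7.99 in TN and 7.97 in HS. The other AZIN1 probes lay between -0.25 and 0.11.

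Among the enzymes of synthesis, SRM (spermidine synthase) was up-regulated by 0.18 ± 0.06 (adjusted p = 0.0207). Its median went from 9.79 (TN) to 9.99 (HS) for CR, from 9.64 to 9.85 for F1 and from 9.68 to 9.81 for LW pigs, with overlap in each breed. AMD1 gave different answers by probe. A_72_P248097 rose by 0.26 ± 0.08 (adjusted p = 0.0102), and LW TN pigs (6.18 to 6.40) overlapped LW HS pigs (6.29 to 6.80) only at the lowest HS value. The brighter AMD1 probe, O12458, had -0.17 ± 0.18 (adjusted p = 0.497), and it shares 49 bases with a probe of LOC100155925. ODC1, which catalyses the first step, had 0.08 ± 0.13 (adjusted p = 0.636, 95% confidence interval -0.18 to 0.34). SMS had 0.14 ± 0.12 (adjusted p = 0.335), and its probe is identical to one named LOC100153052. SAT1, the acetyltransferase, had 8 probes between -0.18 and 0.04, and 0 passed. Up to 45 bases are shared between 4 of these probes.

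**Figure D4:**
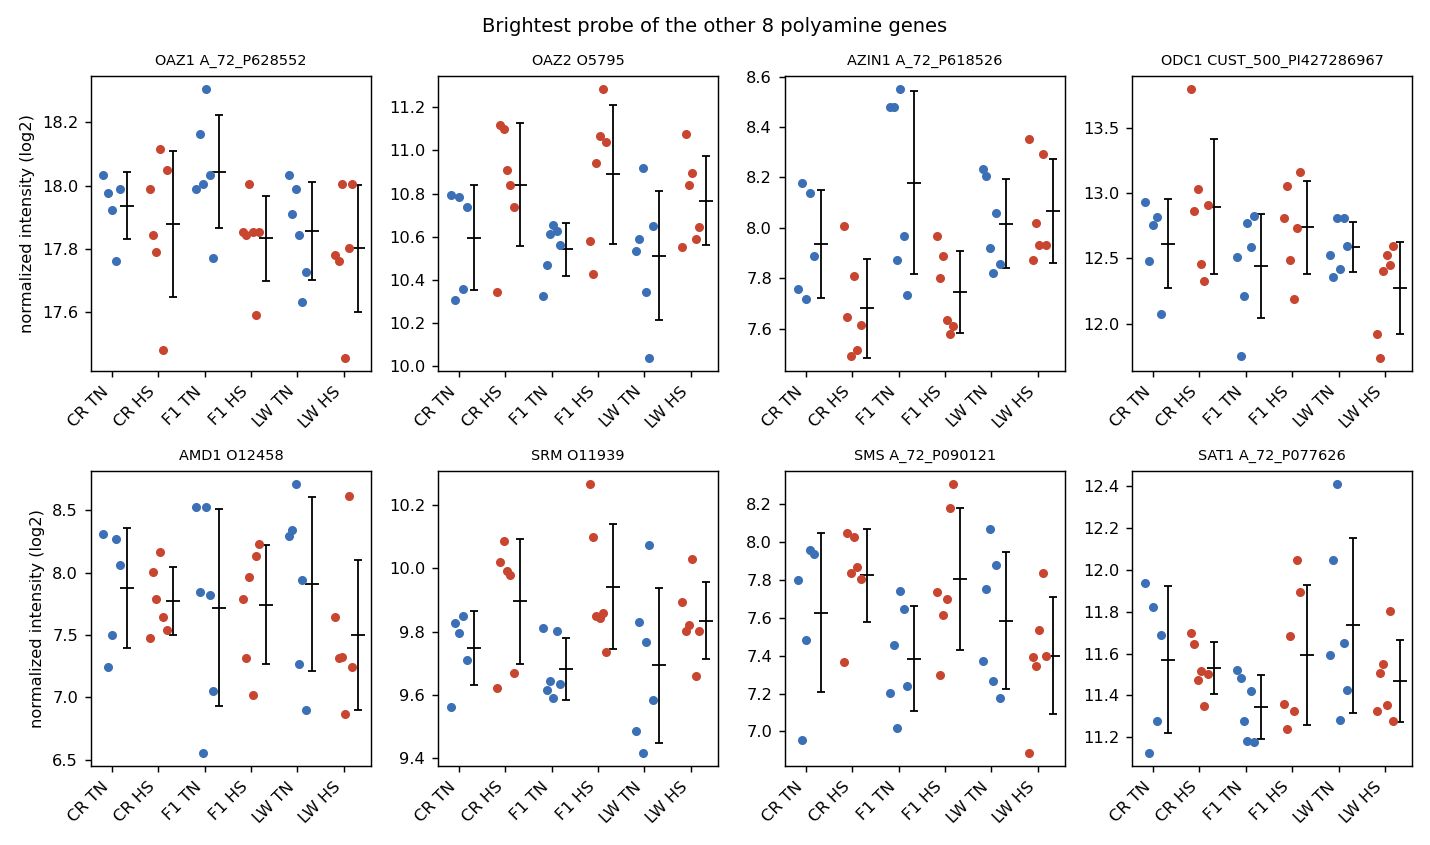
Normalized log2 intensity of the brightest probe of the other 8 genes (panels, each with its own y axis) in each pig, by breed and climate. Points are pigs (blue TN, red HS), and the line with bars is the group mean ± SD. The groups of a breed overlap in most panels, and the OAZ2 and SRM means are higher in HS in all 3 breeds.

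Some markers of several blood cell types differed with heat beside these genes. No heat difference of the 9 genes was called without the F1 pigs. Of 10 measured erythroid markers, 5 were lower and 1 higher in HS, and their median difference was -0.73. The mean of the list went from 11.74 to 10.64 in F1, from 11.27 to 10.78 in CR and from 11.46 to 11.08 in LW pigs. Of 5 measured monocyte markers 2 were higher in HS, CSF1R (0.51 ± 0.11, adjusted p = 0.0016) and VCAN (0.48 ± 0.16, adjusted p = 0.0228). The others did not pass, with 0.24 (CD163), -0.10 (CD14) and -0.14 (LYZ). Of 5 B cell markers 2 were higher, MS4A1 (0.38 ± 0.14, adjusted p = 0.0344) and CD79B (0.35 ± 0.14, adjusted p = 0.0445), and of 5 T cell markers 1, CD2 (0.33 ± 0.11, adjusted p = 0.0219). The remaining B cell markers lay between 0.19 and 0.28, and the remaining T cell markers between -0.11 (CD3G) and 0.15 (LCK). These counts stand beside 20.1% of all probes up and 14.7% down. None of 6 neutrophil and 3 platelet markers passed, with median differences of -0.47 and 0.24, and the germ cell marker PRM1 was lower (-0.45 ± 0.17, adjusted p = 0.0412). With the erythroid mean as a covariate, 0 of 32 probes were called, as were 3 of all 39072 (0.00768%), and O502 of OAZ1 had -0.33 (adjusted p = 0.139). Without the F1 pigs, 0 of 32 and 0 of 39072 were called (6845 of all at an unadjusted p below 0.05), and O502 of OAZ1 had -0.59 (adjusted p = 0.174) and OAZ2 0.25 (adjusted p = 0.245) in this smaller fit. The part of the blood cell types in these differences was not tested.

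Within breeds, 6 of 32 probes were called in F1 pigs (5 down and 1 up, beside 17.9% of all probes down and 20.8% up, 38.7% in all), and 0 in CR and 0 in LW pigs, where 0% of all probes passed. In CR pigs 1 of 32 and in LW pigs 6 of 32 had an unadjusted p below 0.05, beside 8.87% and 8.71% of all probes. The F1 TN arrays were dimmer than the others, with a 75th percentile of the processed intensity of 149.9 ± 28.3 (SD, n = 6) against group means of 202 to 238, and 55.2% to 63.9% of probes well above background against 63.2% to 67.5% in F1 HS pigs. The part of this in the F1 heat differences was not tested. The 6 probes called in F1 pigs were 4 of OAZ1, the brightest of AZIN1 and A_72_P248097 of AMD1. For A_72_P059181 of OAZ1 the HS minus TN difference was -0.85 ± 0.20 in F1, -0.45 ± 0.20 in LW and -0.14 ± 0.21 in CR pigs. For O502 it was -0.56 ± 0.23 in F1, -0.69 ± 0.23 in LW and -0.49 ± 0.24 in CR pigs.
No difference between breeds in the heat response was detected. The limma interaction of breed and climate called 0 of 32 probes and 0% of all probes, with 3 of 32 at an unadjusted p below 0.05, beside 14.9% of all probes. These were 1 probe each of SAT1, OAZ1 and AZIN1, and the lowest adjusted p was 0.287, for SAT1 A_72_P633056. That probe had 0.30 ± 0.16 in F1 pigs and -0.33 ± 0.16 in LW pigs, and the difference between these was 0.63 ± 0.22 (adjusted p = 0.124). For that difference between F1 and LW pigs, 9 of 32 probes had an unadjusted p below 0.05, beside 22.7% of all probes, and 6 of the 9 were of SAT1, some of which share sequence. Of the 32, 0 passed, as did 0% of all probes. ODC1 had 0.30 ± 0.21 in F1, 0.28 ± 0.22 in CR and -0.31 ± 0.21 in LW pigs.

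Of 32 further genes listed for polyamine supply, breakdown, transport and use, 22 had a value, and each was taken with its brightest probe. In HS, 6 were up-regulated and 6 down-regulated, with a median difference of -0.02, beside 20.1% of all probes up and 14.7% down. Leaving out each pig gave 9 to 13 calls in place of these 12. The counts rest on the brightest probes. Those of MAT2B, OAT and AHCY did not pass, while 2 of 3, 2 of 11 and 1 of 3 probes of these genes were up-regulated. The breakdown enzymes split. PAOX, a peroxisomal polyamine oxidase, rose by 0.51 ± 0.09 (adjusted p = 0.00159), from a mean of 7.18 to 7.88 in F1, 7.38 to 7.84 in CR and 7.50 to 7.87 in LW pigs. The spermine oxidase SMOX fell by 0.87 ± 0.20 (adjusted p = 0.00223, 2 of 2 probes), and SAT2, a relative of SAT1, fell by 0.77 ± 0.19 (adjusted p = 0.00321, 1 of 2 probes). F1 TN pigs (12.33 to 13.94) and F1 HS pigs (10.38 to 11.91) did not overlap for SMOX, nor for SAT2 (10.12 to 10.88 against 7.83 to 9.72). In CR and LW pigs both genes overlapped between climates. The lack of overlap in F1 pigs was not particular to these genes, and PAOX, ARG1, EIF5A, SLC22A2 and MAT1A shared it. Its share over all probes was not counted, while 38.7% of all probes were called in F1 pigs.

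Of the supply genes, ARG1, which makes ornithine from arginine, fell by 1.52 ± 0.32 (adjusted p = 0.00165), with 5 of 5 probes down-regulated. AGMAT, named for the hydrolysis of agmatine to putrescine, rose by 0.48 ± 0.12 (adjusted p = 0.00338). Both measured genes of hypusine formation rose. These were EIF5A, the protein on which spermidine is used to build hypusine (0.27 ± 0.06, adjusted p = 0.00187, 1 of 2 probes), and DHPS, the enzyme that begins this step (0.25 ± 0.07, adjusted p = 0.0111). The transporters SLC22A2 (-0.57 ± 0.13, adjusted p = 0.00253) and SLC3A2 (-0.53 ± 0.19, adjusted p = 0.0331, 2 of 3 probes) fell, as did MAT1A, which makes S-adenosylmethionine (-1.05 ± 0.27, adjusted p = 0.00459). The call of SLC3A2 was lost without CR TN pig 2 or 3, F1 HS pig 5 or LW TN pig 4, with adjusted p from 0.0526 to 0.0617. For CR minus LW, F1 minus CR and F1 minus LW, 0 of the 22 genes passed, beside 1.08%, 0.184% and 0.0256% of all probes. With the erythroid mean as a covariate, or without F1 pigs, 0 of the 22 passed for heat, beside 0.00768% and 0% of all probes. SMOX, for example, then had -0.51 (adjusted p = 0.144) and -0.57 (adjusted p = 0.234).

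**Figure D5:**
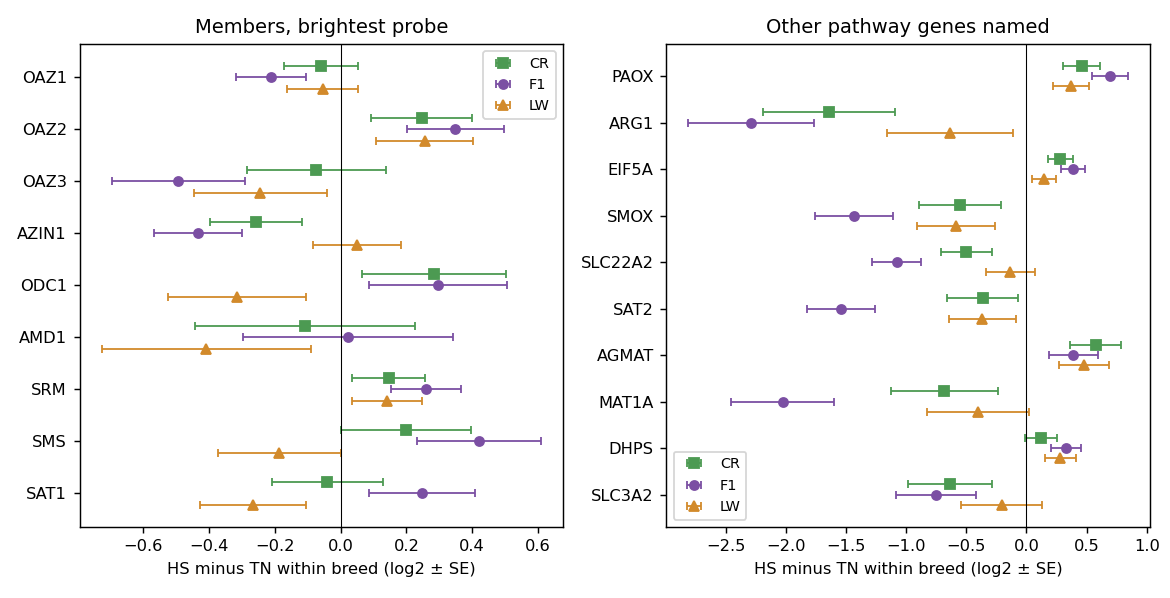
HS minus TN difference on the log2 scale ± SE (x axis) within CR (green squares), F1 (purple circles) and LW pigs (orange triangles), for the brightest probe of the 9 polyamine genes (left) and for 10 other pathway genes (right), each on the y axis. SMOX, SAT2 and MAT1A reach their lowest values in F1 pigs, and the interaction of breed and climate passed for 0 of all 39072 probes.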

How the data were processed

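Labelled RNA of whole blood was hybridized to a custom Agilent porcine array. Per the file headers, the deposited scanner files (Feature Extraction 10.10.1.1) hold raw median and processed intensity of each spot. The authors made the log2 table by quantile normalization of the median intensity and a filter on expressed probes whose rule is not given in the sources used here. These log2 values were analysed. Values recomputed from the raw intensity correlated with them at 0.99997.

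Each probe was fitted with limma 3.58.1 in R 4.3.3. Breed and climate were additive terms for HS minus TN and for the breed contrasts over 35 pigs, and the 6 group means gave effects within breeds and the interaction. All tests were two-sided, with Benjamini-Hochberg adjustment over 39072 probes and a threshold of 0.05. The code was tested on simulated data. The pen, day of slaughter and parents used as random effects in the study have no labels here, so pigs are treated as independent.

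The members, the gene lists and the rules were chosen with earlier results of these data known. A gene with several probes is represented by the probe with the highest mean. Of the other pathway genes, the 10 named are those with the smallest adjusted p past the threshold. For likeness to OAZ3, the 5 genes with the highest Pearson correlation were named, and neighbours were the 3 nearest genes on each side in the RefSeq table. Slides 1 to 4 hold all groups and slide 5 holds 3. Alternatives were other background corrections, scalings and filters, slide as a block, array weights, an erythroid covariate, and leaving out pigs. No pair of arrays had a correlation above 0.9999. On each array, 55.2% to 68.0% of probes were well above background, and the 75th percentile of the processed intensity was 149.9 ± 28.3 (SD, n = 6) in F1 TN pigs against 202 to 238 as the means of the other groups. For arrays, the number of pigs limits the precision.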

Additional observations from a re-analysis of the deposited data

Results flagged for a closer look

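A pig far from the others of its group was looked for with Dixon's test at the 95% level in 60 combinations of brightest or OAZ3 probes and groups, and 3 were found. Chance flags about 1 in 20 independent groups, but 2 of the 3 are the same pig with the 2 OAZ3 sequences, which follow each other, so the count cannot be set against that share. LW HS pig 6 was low for OAZ3 with A_72_P437459 (5.79) and with A_72_P619999 (6.31). CR HS pig 1 was low for SMS (7.37, against 7.80 or more in the other CR HS pigs).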

How the results depend on the processing

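The CR minus LW difference of OAZ3, on which the gene was selected, kept its sign under every alternative run, which is description and no test. It was larger with scaling of the processed intensity, at -3.75 (A_72_P437459) and -3.65 (O3277), and -2.50 with the erythroid covariate (A_72_P437459), which was added after seeing the data. Within slide 2, A_72_P619999 gave -1.13, and within slide 4 the 3 probes gave -1.17 (A_72_P437459), -0.24 (A_72_P619999) and -1.33 (O3277). Leaving out each pig gave -2.69 to -2.40 for A_72_P437459, -0.84 to -0.72 for A_72_P619999 and -2.67 to -2.39 for O3277.

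The 9 heat calls became 7 to 11 with other corrections, filters, slide as a block or array weights, and 7 to 10 when each pig was left out. Of all probes, 34.8% passed in the main fit. This share was 35.8% with scaling of the processed intensity, 36.9% with slide as a block and 46.9% with array weights. With the erythroid covariate 0 of 32 probes and 0 of 22 pathway genes were called (beside 0.00768% of all probes), and likewise 0 and 0 without F1 pigs (beside 0%). In F1 pigs the 6 calls (beside 38.7% of all probes) became 11 with scaling of the processed intensity (38.4%), 10 with slide as a block (43.2%) and 0 with the erythroid covariate (11.3%). They became 4 to 9 without each pig. In LW pigs array weights called 2, beside 2.84% of all probes. The erythroid covariate called 1 breed difference (OAZ1 O502, CR minus LW), beside 2.12% of all probes. AZIN1 A_72_P618526 lost its call in 21 and OAZ1 A_72_P602908 in 17 of the 35 fits that left out 1 pig, and both lost it with no filter on dim probes. OAZ3 A_72_P619999 passed for heat with scaling of the processed intensity (-0.45, adjusted p = 0.0414), slide as a block (-0.28, adjusted p = 0.049) and array weights (-0.34, adjusted p = 0.0151). It also passed in 4 of the 35 fits that left out 1 pig, while without LW HS pig 6 it had -0.22 (adjusted p = 0.114).

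The sign turned for heat differences that had not been called. SAT1 A_72_P077626 had 0.054 with scaling of the processed intensity and ranged from -0.056 to 0.033 without each pig. OAZ1 A_72_P628552 had 0.014 and AMD1 O12458 0.087 with the erythroid covariate. Without F1 pigs, ODC1 had -0.029 and SMS -0.0027. OAZ2 O5795, which was called, had -0.0040 within slide 1. The cause was not tested. No paired analysis was possible, because each pig was sampled once and the labels give no litter. Pigs were numbered in record order. The values depend on signal over background for OAZ3 in CR pigs, where 2 arrays of each of the 2 twin probes were not well above it.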
